A study of Arabidopsis thaliana with 6 samples.

Results

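Small RNA (sRNA) was examined at 8 loci by which Arabidopsis keeps its own silencing machinery in check: the miRNA genes *MIR168A*, *MIR168B*, *MIR162A*, *MIR162B* and *MIR403*, and the genes that these miRNAs target, *AGO1*, *DCL1* and *AGO2*. A cluster, which is a genomic interval that collects aligned sRNA reads, was taken if 1 base or more of it lay in the annotated span of one of these loci. This rule gave 13 of the 17131 clusters of the series, and all 8 loci had at least 1. The memory group was 2 plants of the first generation of the *msh1* memory line. These are transgene-free progeny of Col-0 plants in which *MSH1*, a gene for a protein of plastids and mitochondria, had been silenced by RNAi, and as the study describes that generation, they were full sibs from 1 parent plant, picked by eye for altered growth. The controls were 4 isogenic Col-0 wild type plants from negative transformation events. Rosette leaves were taken at bolting from plants grown in days of 12 h light at 22 °C, and each library came from a single plant. A difference of the memory family cannot be told apart from memory itself, because no sib of normal growth was analysed here.

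As background, DCL1 is the Dicer enzyme that cuts miRNAs from their hairpin precursors, and AGO1 is the Argonaute protein that most plant miRNAs are loaded into. miR168 guides AGO1 to the *AGO1* transcript and miR162 guides the cutting of the *DCL1* transcript. Both central enzymes of the pathway are thus held down by miRNAs that the pathway makes. AGO2 is an Argonaute known for antiviral defence, and its transcript is a target of miR403. sRNA counts at a miRNA gene are generally taken to stand for the miRNA and its partner strand, which could not be checked here without read lengths. Counts at a target gene are small fragments or siRNAs made from it and not its transcript level. In whole leaves, fewer cells with an sRNA and less of it per cell cannot be told apart. The tables hold no mRNA levels, so the tissue label was not checked against marker genes.

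The sequences below show why the copies of a family share their reads and where each miRNA pairs with its target. They were read from the RefSeq TAIR10.1 genome at the annotated mature coordinates and are written as DNA, 5′ to 3′, with the seed (bases 2 to 8) in capitals. The pair of arms that guide miR168 are identical, as are those of miR162, and each sequence matched the nuclear genome at 2 places.
miR168a-5p, chr4:10578652-10578672, plus strand: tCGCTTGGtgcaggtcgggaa
miR168b-5p, chr5:18358873-18358893, minus strand: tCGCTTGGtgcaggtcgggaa
miR162a-3p, chr5:2634936-2634956, minus strand: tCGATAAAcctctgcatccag
miR162b-3p, chr5:7740610-7740630, minus strand: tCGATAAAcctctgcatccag
miR403-3p, chr2:19415154-19415174, plus strand: tTAGATTCacgcacaaactcg

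The seed of miR168, the seed of miR162 and the seed of miR403 differ from each other. The opposite arms are shown because they decide whether the gene copies can be separated.
miR168a-3p: cCCGCCTTgcatcaactgaat
miR168b-3p: cCCGTCTTgtatcaactgaat
miR162a-5p and miR162b-5p: tGGAGGCAgcggttcatcgatc
miR403-5p: tGTTTTGTgcttgaatctaatt

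The miR168 opposite arms differ by C5T and C10T (miR168a-3p base, position from the 5′ end, miR168b-3p base), and each matched the genome once. Both arms of miR162a equal those of miR162b, so reads of either arm could come from either gene. The split of counts between the copies of a family therefore depends on how the aligner placed reads that match both, and sums over a family are given beside the single genes. Both miR403 sequences matched the genome once.

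Each guide arm was then searched, allowing G:U pairs and at most 1 unpaired target base, over the spliced mRNAs of 27444 protein-coding genes. In the target sites below, capitals mark bases that do not pair with the miRNA.
AGO1 site for miR168, chr1:17891529-17891549, minus strand: ttcccgaGctgcatcaagcTa
DCL1 site for miR162, chr1:27522-27627, plus strand, spliced: ctggatgcagaggtAttatcga
AGO2 site for miR403, chr1:11185223-11185243, plus strand: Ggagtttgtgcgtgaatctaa

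The *AGO1* site lay in coding sequence of exon 2 with 2 mismatches and 1 G:U pair. The *DCL1* site spanned the junction of exons 12 and 13 with 0 mismatches and 1 unpaired base, which is why it reads as 22 bases. The *AGO2* site lay in the untranslated part of exon 3, the last exon, with 1 mismatch at its 5′ end. For each miRNA the named target was the 1 gene of the 27444 (0.00364%) with a site that good. A match of letters is a description, and cleavage was not measured.

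The levels of the miRNA genes differed widely. MIR168A (AT4G19395; Cluster_12632, chromosome 4, 10578499 to 10578802) held 38550 and 40053 counts in the memory libraries, against 51821, 53573, 62196 and 48931 counts in wild type replicates 1 to 4. MIR403 (AT2G47275; Cluster_7217, chromosome 2, 19414975 to 19415410) held 17654 and 12767 counts in memory, against 20625, 21033, 24765 and 20802 in wild type. These were the highest of the 5 genes. Counts were compared as CPM, counts per 1000000 counts of a library size scaled by TMM, a factor that offsets differences in library make-up and was 1.059 and 0.768 in memory and 0.827 to 1.22 in wild type. Libraries held 7966799 to 12099251 counts in memory and 10151442 to 18134284 in wild type, of which 2 clusters at ribosomal RNA genes took 30.7 to 40.8%. Among 253 clusters at annotated miRNA genes, with ribosomal RNA loci left out, *MIR168A* ranked 7 by mean CPM in memory and 6 in wild type, and *MIR403* ranked 12 in both groups. *MIR162B* ranked 32 in memory and 31 in wild type, *MIR168B* 62 and 73, and *MIR162A* 77 and 69.

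**Figure D1:**
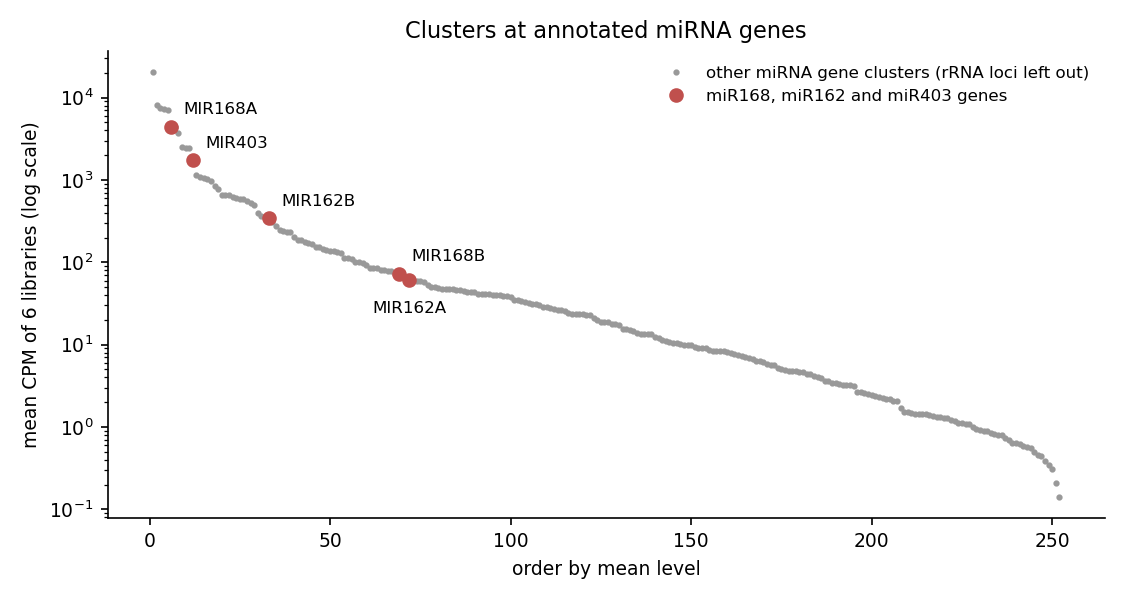
Mean CPM over the 6 libraries (log scale) of the 253 clusters at annotated miRNA genes, ordered from highest to lowest (1 with no counts is not drawn), with the miR168, miR162 and miR403 genes as red points. *MIR168A* and *MIR403* are near the top of the order, *MIR162B* follows, and *MIR168B* and *MIR162A* lie close together further down.

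Per kb of cluster the order of levels over the 6 libraries ran from *MIR168A*, with a mean of 14615 CPM per kb (9909 to 21549), to *MIR403* with 3964 (3164 to 4949), *MIR162B* with 982 (789 to 1344), *MIR168B* with 169 (106 to 216) and *MIR162A* with 63.7 (38.3 to 94.2). The ranges of neighbouring genes did not overlap down to *MIR162A*, whose range met that of the *AGO2* cluster at 32.4 CPM per kb (18.5 to 49.4). This order depends on cluster width. In CPM not taken per kb, the ranges of *MIR168B* (45.3 to 92.7) and *MIR162A* (37.1 to 91.2) overlapped. The clusters of *AGO1* and *DCL1* lay lowest, between 0.42 and 6.02 CPM per kb. Clusters were wider than the hairpins, which took 14.5% of the cluster at *MIR162A* and 28.9% to 45.4% at the 4 others, and no other annotated gene shared a base with these 5 clusters.

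The first comparison asked whether memory plants and wild type differed at the miRNA genes. For miR168, *MIR168A* had 3012 and 6551 CPM in memory, against 3495, 3867, 5419 and 4314 CPM in wild type. The memory libraries held both the lowest and the highest value, so the groups overlapped entirely. In edgeR's quasi-likelihood test over all clusters it had a log2 fold change, memory minus wild type, of 0.16 ± 0.39 (SE) and a Benjamini-Hochberg adjusted p of 0.9. Scaling by library size alone gave -0.16, so no direction can be read from this gene.

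*MIR168B* (AT5G45307; Cluster_16227, chromosome 5, 18358622 to 18359050) held 1155 and 567 counts in memory, against 671, 1096, 733 and 718 in wild type. This was 90.3 and 92.7 CPM in memory, against 45.3, 79.1, 63.9 and 63.3 CPM in wild type. Both memory values lay above all wild type values, with a small margin over wild type replicate 2, which 10.1% of all tested clusters also showed in that direction. The fitted log2 fold change of 0.54 ± 0.22 (SE) had an unadjusted p of 0.0471 and an adjusted p of 0.468 (edgeR quasi-likelihood), so it did not pass. With plain library totals the groups overlapped, with 95.5 and 71.2 CPM in memory, against 37.0, 96.5, 72.2 and 68.0 CPM in wild type.

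The summed miR168 family had 4873 ± 2504 CPM in memory (SD, n = 2) and 4337 ± 837 CPM in wild type (SD, n = 4), a ratio of 1.12 with an exact two-sided permutation p of 0.8. *MIR168B* made up 2.91% and 1.4% of the family counts in memory, against 1.28%, 2.0%, 1.16% and 1.45% in wild type. The share in memory replicate 1 (95% Wilson interval 2.75 to 3.08%) was the highest of the 6, while memory replicate 2 lay inside the wild type range.

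For miR162, *MIR162B* (AT5G23065; Cluster_14166, chromosome 5, 7740537 to 7740885) held 3589 and 2867 counts in memory, against 4081, 5243, 3634 and 3826 in wild type. Its CPM of 281 and 469 in memory enclosed the wild type values of 275, 379, 317 and 337 except the lowest. Its fitted log2 fold change was 0.2 ± 0.25 (SE; edgeR quasi-likelihood, adjusted p = 0.793). *MIR162A* (AT5G08185; Cluster_13645, chromosome 5, 2634769 to 2635736) held 475 and 434 counts in memory, against 681, 1010, 594 and 1034 in wild type. Its CPM was 37.1 and 71.0 in memory, against 45.9, 72.9, 51.8 and 91.2 in wild type, with overlapping groups. For this gene the fit gave -0.28 ± 0.37 (SE) on the log2 scale (edgeR quasi-likelihood, adjusted p = 0.809).

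The miR162 family summed to 429 ± 157 CPM in memory (SD, n = 2) and 392 ± 59 CPM in wild type (SD, n = 4), a ratio of 1.09 (exact two-sided permutation test, p = 0.8). Within the family, *MIR162A* made up 11.7% and 13.1% of counts in memory, against 14.3%, 16.2%, 14% and 21.3% in wild type. Both memory shares lay below all wild type shares, although the interval of memory replicate 2 (Wilson, 12.0 to 14.3%) overlapped that of wild type replicate 3 (13 to 15.1%). An exact two-sided permutation test gave p = 0.133, below which 2 against 4 libraries cannot go, and 0.366 when adjusted over the 11 locus values and ratios tested this way. Since both arms of the genes are identical, this share depends on the aligner's placement of reads as well, which was not tested.

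*MIR403* had 1380 and 2088 CPM in memory, against 1391, 1518, 2158 and 1834 CPM in wild type, and the groups overlapped over nearly their whole range. The means were 1734 ± 501 CPM in memory (SD, n = 2) and 1725 ± 343 CPM in wild type (SD, n = 4). On the log2 scale the fitted difference was 0.01 ± 0.29 (SE; edgeR quasi-likelihood, adjusted p = 0.996).

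**Figure D2:**
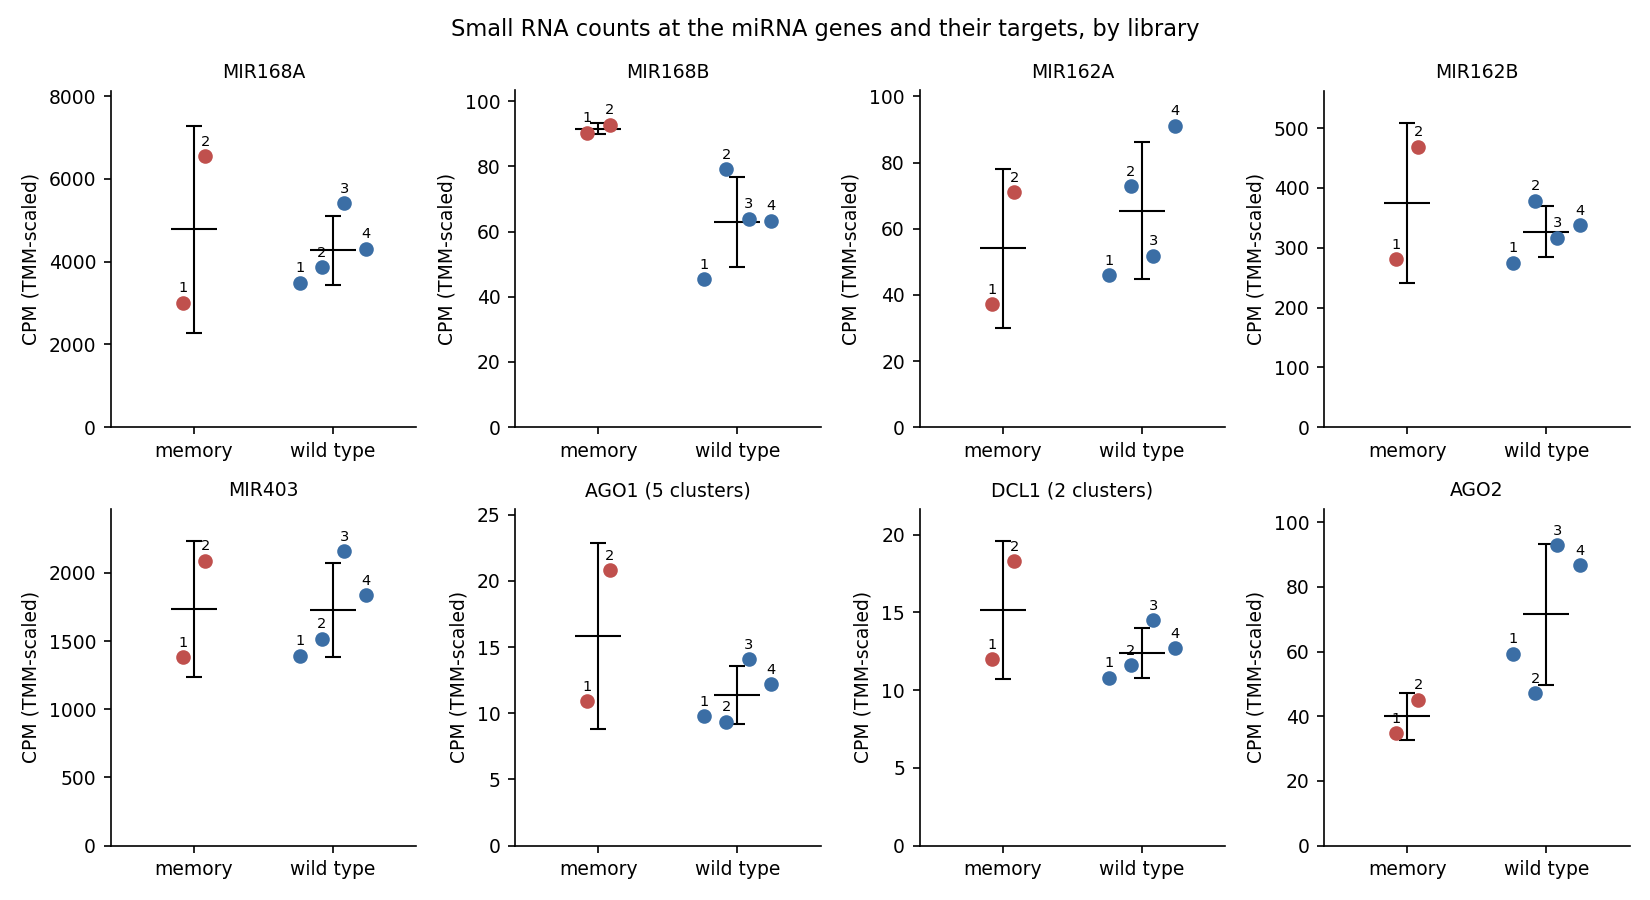
TMM-scaled CPM at each of the 8 loci in the 2 memory libraries (red, left) and the 4 wild type libraries (blue, right), each point labelled with its replicate number, with the mean and SD in black. Both memory values lie below all wild type values at *AGO2* and above them at *MIR168B*, and the groups overlap at the 6 other loci.

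The memory plants differed from each other at all 3 miRNA families, and by how much depended on the scaling. Memory replicate 2 exceeded memory replicate 1 by 2.14-fold for miR168, 1.7-fold for miR162 and 1.51-fold for miR403 on the TMM scale, and by 1.55-fold, 1.23-fold and 1.1-fold on plain library totals. Among wild type libraries the highest exceeded the lowest by 1.41-fold to 1.55-fold for these families on the TMM scale, and by 2.1-fold to 2.14-fold on plain totals, where wild type replicate 1 was lowest in each.

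The next comparison was of sRNA at the target genes. *AGO2* (AT1G31280, chromosome 1, 11181504 to 11185396) carried Cluster_1253 (11183655 to 11185536), which covered 1458 bases of coding sequence, 284 bases of untranslated exon with the miR403 site, and 140 bases beyond the gene. It held 445 and 276 counts in memory, against 880, 652, 1066 and 983 counts in wild type. On the TMM scale this was 34.8 and 45.1 CPM in memory, against 59.4, 47.1, 92.9 and 86.7 CPM in wild type. Both memory values lay below all 4 wild type values, and memory replicate 2 was close to wild type replicate 2. Of all tested clusters, 12.0% were likewise separate with memory lower. The mean was 40.0 ± 7.33 CPM in memory (SD, n = 2) and 71.5 ± 21.8 CPM in wild type (SD, n = 4), a ratio of 0.559. The groups were also separate on plain library totals, with 36.8 and 34.6 CPM in memory, against 48.5, 57.4, 105 and 93.1 CPM in wild type.

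The *AGO2* difference did not pass the test across all clusters. The fitted log2 fold change of -0.84 ± 0.32 (SE) had an unadjusted p of 0.0376 and an adjusted p of 0.457 (edgeR quasi-likelihood). On CPM alone an exact two-sided permutation test gave 0.133, its lowest possible p. The sign stayed negative under all alternatives run, from -1.09 to -0.42, with adjusted p of 0.275 to 0.987. The value of -0.42 came from the 4 libraries numbered 1 and 2, which leave out the pair of wild type libraries with the highest *AGO2* values.

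*AGO1* (AT1G48410, chromosome 1, 17885633 to 17892632, minus strand) carried 5 clusters that together covered 48.6% of the gene. In transcript order, Cluster_2605 covered the miR168 site, and Cluster_2604, Cluster_2603, Cluster_2602 and Cluster_2601 began 641, 1516, 2214 and 2718 bases 3′ of it. Together they held 140 and 127 counts in memory, against 145, 130, 162 and 138 in wild type. This was 10.9 and 20.8 CPM in memory, against 9.78, 9.38, 14.1 and 12.2 CPM in wild type. Memory replicate 2 was the highest library and memory replicate 1 lay inside the wild type range (exact two-sided permutation test, p = 0.4).

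Cluster_2604 (17890100 to 17890887) had the most sRNA per kb on *AGO1*, with 49 and 51 counts in memory, against 53, 45, 62 and 46 in wild type, and a log2 fold change of 0.57 ± 0.4 (SE). Cluster_2605 (17890962 to 17891923) held 44 and 39 counts in memory, against 44, 42, 63 and 59 in wild type, and its log2 fold change was 0.22 ± 0.42 (SE). Cluster_2603 (17889687 to 17890012) held 23 and 20 counts in memory, against 27, 15, 19 and 11 in wild type, with the highest fitted change of the gene at 0.85 ± 0.43 (SE). Cluster_2601 (17887864 to 17888810) held 15 and 12 counts in memory, against 12, 24, 10 and 20 in wild type, a log2 fold change of 0.25 ± 0.51 (SE). All 4 tested *AGO1* clusters had fitted changes above 0, as had 7469 of all 15659 tested clusters, with adjusted p of 0.536 to 0.884 (edgeR quasi-likelihood). With library size scaling 2 of the 4, Cluster_2601 and Cluster_2605, were below 0. Without memory replicate 2, Cluster_2601 (-0.14), Cluster_2604 (-0.09) and Cluster_2605 (-0.28) were below 0, and Cluster_2603 was at 0.37. Cluster_2602 (17888938 to 17889314) was left out by the filter on low counts, with 9 and 5 counts in memory, against 9, 4, 8 and 2 in wild type.

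*DCL1* (AT1G01040, chromosome 1, 23121 to 31227, plus strand) had no cluster over the miR162 site. Cluster_3 (27799 to 30080) began 171 bases 3′ of the site and covered 1824 coding bases and 458 intron bases. It also contained *MIR838* (AT1G01046), a miRNA gene inside an intron of *DCL1*, so its counts cannot be assigned to the transcript alone. Cluster_3 held 144 and 105 counts in memory, against 149, 152, 160 and 135 in wild type. Its CPM was 11.3 and 17.2 in memory, against 10, 11, 13.9 and 11.9 in wild type, and the groups overlapped. The fit gave a log2 fold change of 0.27 ± 0.24 (SE; edgeR quasi-likelihood, adjusted p = 0.694). Cluster_4 (30155 to 31995) had 768 of its 1841 bases beyond *DCL1*, reached the neighbouring gene *PPa1*, and held 10 and 7 counts in memory, against 11, 9, 6 and 9 in wild type, too few to be tested.

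**Figure D3:**
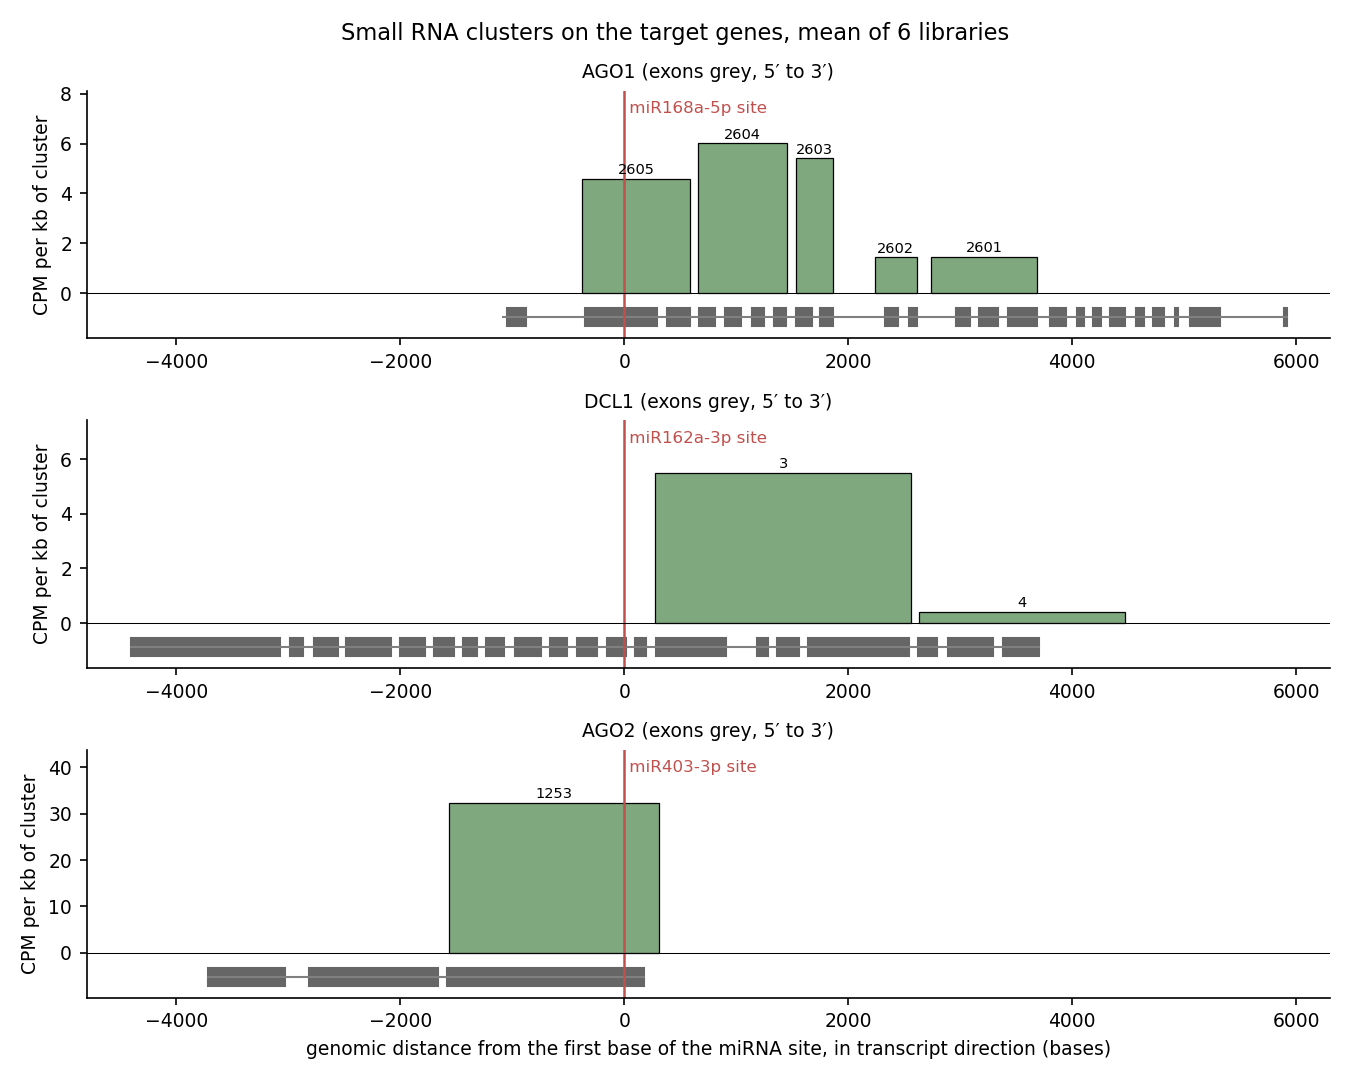
sRNA clusters on *AGO1*, *DCL1* and *AGO2*, with height as the mean CPM per kb of cluster over 6 libraries and position as genomic distance in bases from the first base of the miRNA site (red line), in transcript direction. The *AGO1* and *AGO2* sites lie inside a cluster, the *DCL1* site lies just before one, and no cluster of *AGO1* or *DCL1* lies wholly 5′ of its site, whereas most of the *AGO2* cluster does.

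To set each target against its own miRNA without any scaling between libraries, the ratio of their counts was taken within each library. These ratios were chosen after the values had been seen. *AGO2* had 25.2 and 21.6 counts per 1000 miR403 counts in memory, against 42.7, 31.0, 43.0 and 47.3 in wild type. The memory mean was 0.571 times the wild type mean, and both memory values lay below all wild type values. This reuses the *AGO2* counts compared above, where the ratio of mean CPM was 0.559, while that of miR403 was 1.0. It is therefore not a second, separate difference. *AGO1* had 3.53 and 3.13 counts per 1000 miR168 counts in memory, against 2.76, 2.38, 2.57 and 2.78 in wild type, a ratio of means of 1.27 with both memory values above all wild type values. Each reached p = 0.133 in the exact two-sided permutation test, the lowest possible, or 0.366 when adjusted over the 11 values.

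*DCL1* had 37.9 and 33.9 counts per 1000 miR162 counts in memory, against 33.6, 25.7, 39.3 and 29.6 in wild type, and these values overlapped (exact two-sided permutation test, p = 0.533). The *AGO1* ratio rests on 127 to 162 *AGO1* counts in a library, the *DCL1* ratio on 112 to 166 *DCL1* counts and the *AGO2* ratio on 276 to 1066 *AGO2* counts.

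**Figure D4:**
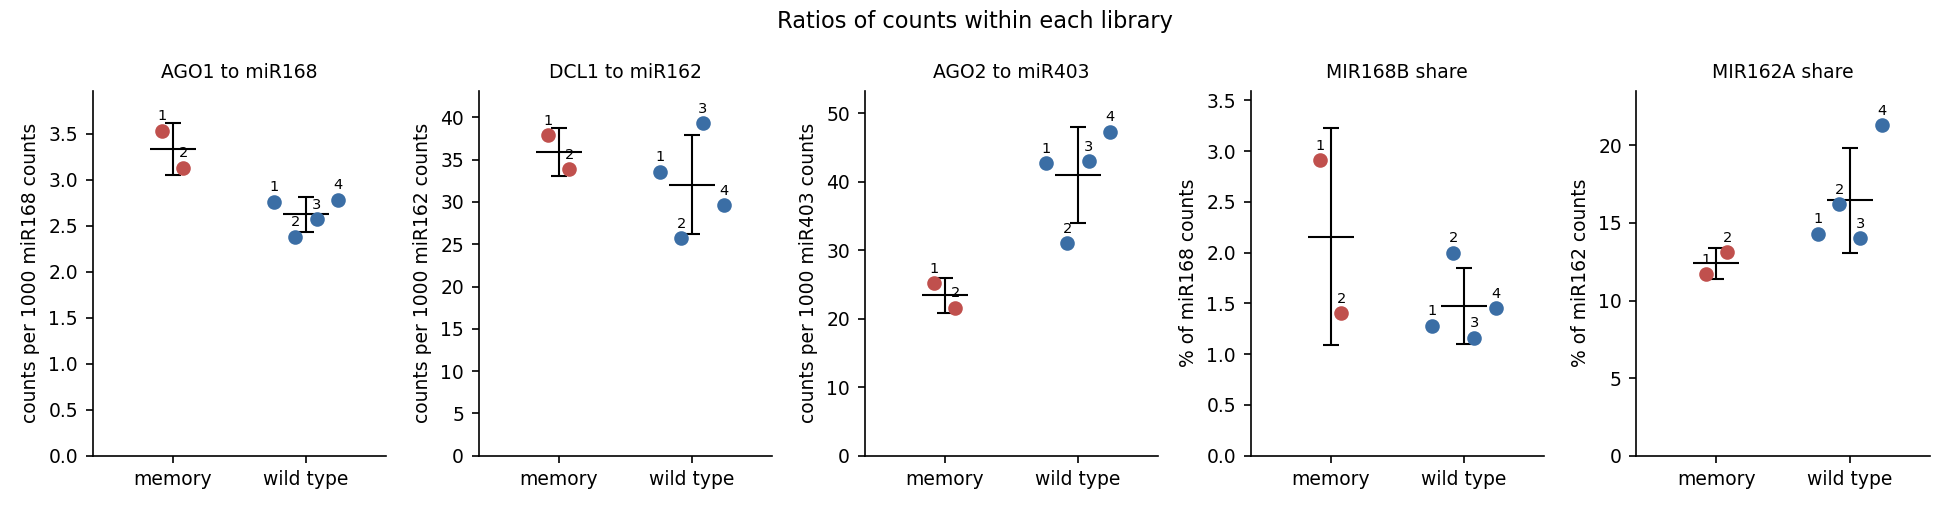
Target counts per 1000 counts of the miRNA family, and the share of one gene copy in its family (%), in the 2 memory libraries (red, left) and the 4 wild type libraries (blue, right), with replicate numbers, means and SDs. Memory values lie apart from wild type for *AGO2* to miR403 (25.2 and 21.6 in memory, against 31.0 to 47.3 in wild type), for *AGO1* to miR168 and for the *MIR162A* share, and overlap for *DCL1* and the *MIR168B* share. In CPM, 22.1% of all tested clusters had groups that did not overlap, and no such share was computed for ratios.

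Over the list, 11 of the 13 clusters passed the filter on low counts and 2 (Cluster_2602 and Cluster_4) did not. With edgeR's quasi-likelihood test 0 of the 11 had an adjusted p below 0.05, where 0.00639% of all 15659 tested clusters did. DESeq2 and edgeR's likelihood ratio test also gave 0 of the 11, where they called 1.56% and 0.875% of all tested clusters. At an unadjusted p below 0.05 there were 2 (18.2%), against 10.5% of all tested clusters. These were *MIR168B*, higher in memory as were 4.92% of tested clusters, and *AGO2*, lower in memory as were 5.56%. On the TMM scale the same 2 were the tested members whose groups did not overlap in CPM, where the background was 22.1%. On plain library totals *MIR168B* overlapped, and *AGO2* and the *AGO1* cluster Cluster_2603 were separate. Cluster_2603 then had 1.9 and 2.51 CPM in memory, against 1.49, 1.32, 1.87 and 1.04 CPM in wild type. No background share was computed for plain totals. Without memory replicate 2, wild type replicate 3 or wild type replicate 4, 0 of the 11 had an unadjusted p below 0.05 in edgeR's test. The median log2 fold change was 0.22 over the 11 clusters and -0.03 over all tested clusters. Of the 11, 9 were above 0, beside 7469 of all 15659 tested clusters. The 11 are not separate loci, as 4 of them lay on *AGO1*. With library size alone 6 of these 9 were below 0. Without memory replicate 2, only Cluster_2603 (0.37) and *MIR168B* (0.52) of the 9 stayed above 0.

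**Figure D5:**
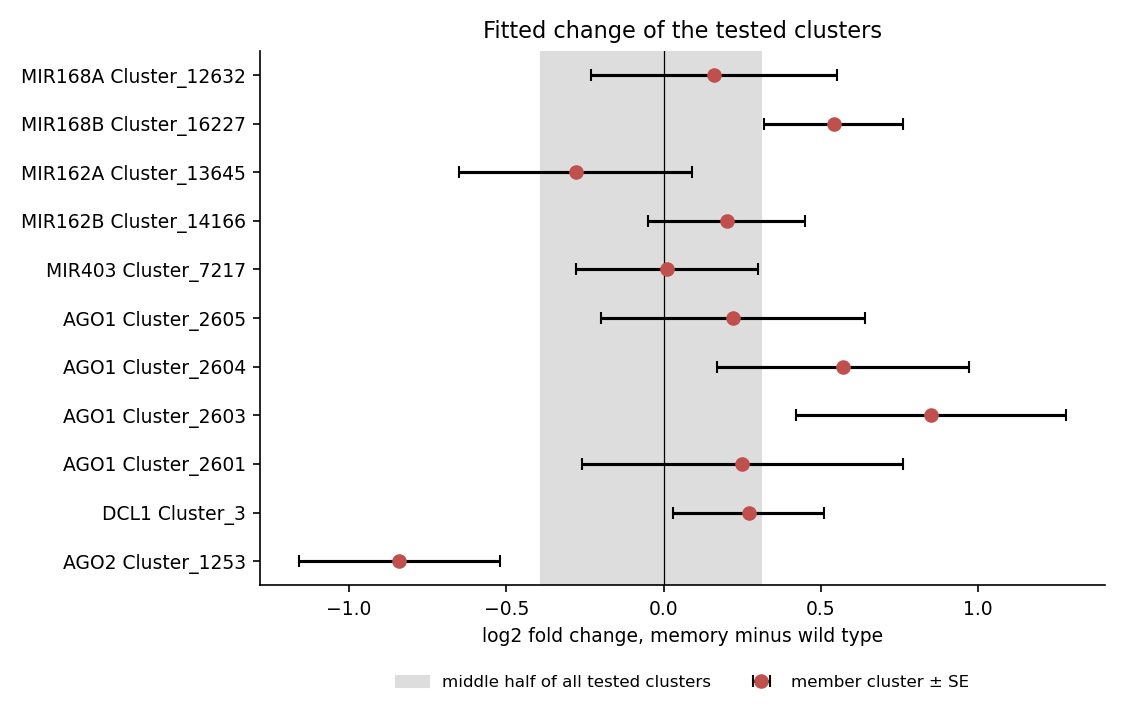
Fitted log2 fold change, memory minus wild type, of the 11 tested clusters with SE bars, beside the range between the quartiles of all tested clusters (grey, -0.39 to 0.31). *AGO2* at -0.84 is the only cluster below that range, and *MIR168B* at 0.54 and the *AGO1* clusters Cluster_2604 at 0.57 and Cluster_2603 at 0.85 lie above it.

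As a setting for these loci, other miRNA genes and other genes of the silencing machinery were counted in the same fit. Of 250 other clusters at miRNA genes, of which 2 also lay at ribosomal RNA genes, 232 were tested. None of the 232 passed in edgeR's quasi-likelihood test, and their median log2 fold change was -0.05. In that test 22 (9.48%) had an unadjusted p below 0.05, 8 higher and 14 lower in memory. Of all 15659 tested clusters 10.5% had, 770 higher and 871 lower. The DESeq2 test called 4 of the 232, beside 245 of all 15659 tested clusters (1.56%), and the likelihood ratio test 2, beside 137 (0.875%). Of 26 other machinery genes, 6 shared a base with a cluster, among them *MIR838* through Cluster_3, and no cluster touched *AGO3*, the neighbour of *AGO2*. The 6 clusters gave 0 calls and 0 at an unadjusted p below 0.05 in edgeR's quasi-likelihood test. Their median log2 fold change was -0.02, and DESeq2 also gave 0 calls. The likelihood ratio test gave 0 calls and 1 at an unadjusted p below 0.05, beside 1294 of all 15659 tested clusters.

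The machinery genes with the largest mean CPM over the 6 libraries, not taken per length, were *CBP80* (cap-binding subunit), *DCL4* (the Dicer of trans-acting siRNAs) and *FBW2* (an F-box protein known to target AGO1 for degradation). The *CBP80* cluster, Cluster_5392, shared 386 of its 26642 bases with the gene and had 155 ± 6.12 CPM in memory (SD, n = 2) and 150 ± 8.2 CPM in wild type (SD, n = 4). Cluster_14065 shared 244 of its 1130 bases with *DCL4* and had 69.6 ± 3.64 CPM in memory and 73.8 ± 11.9 CPM in wild type. Cluster_11821 covered 1584 bases of *FBW2* and held 6 and 564 counts in memory, against 21, 47, 161 and 99 in wild type. Its place among the 3 came from memory replicate 2, since its wild type mean of 6.89 CPM was below the 11.7 CPM of Cluster_3. The memory plants lay at both ends of the *FBW2* range, and the fitted log2 difference of 2.75 ± 1.52 (SE) had an adjusted p of 0.55 (edgeR quasi-likelihood).

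Finally, the miRNA genes whose levels followed those of the leading gene of each family were listed, as a description over 6 libraries. Within a library all clusters share the same depth and scaling factor, and both differed between libraries. Among 144 candidate clusters with a mean of at least 10 CPM, the Pearson correlation of log2(CPM + 0.5) with *MIR168A* was highest for *MIR396a* (0.981), *MIR163* (0.975) and *MIR166c* (0.962). With *MIR162B* it was highest for *MIR5645d* (0.939), *MIR167d* (0.896) and *MIR841b* (0.884). With *MIR403* it was highest for the cluster at *MIR842* and *MIR846* (0.949), *MIR173* (0.9) and *MIR163* (0.885).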

How the data were processed

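sRNA libraries were made with the Illumina TruSeq Small RNA kit and sequenced on a BGISEQ-500. The authors aligned each library to TAIR10 with ShortStack 3.8.3 and merged the alignments with SAMtools, and deposited whole-number counts per cluster with no scaling. How clusters were defined and counted is not given in the sources used here, and the tables as used give neither strand nor read length. Totals ranged from 7966799 to 18134284 counts, so that 3 counts, taken as the floor, were 0.165 to 0.377 CPM. Intervals and floors cover counting error alone. Cluster ends lay within the TAIR10.1 chromosomes, from which annotation (RefSeq) and sequences were taken.

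Counts of all 17131 clusters were tested with edgeR 4.0.16 (R 4.3.3): quasi-likelihood test, TMM, filterByExpr, group alone as the design, and Benjamini-Hochberg adjustment over 15659 clusters. The SE was the fold change divided by the square root of F. Single values were compared with the exact two-sided permutation test of scipy 1.17.1 over 15 splits. In the site search a mismatch or unpaired base cost 1 and a G:U pair 0.5. Alternatives were RLE, library size alone, other filters, DESeq2 1.42.0, the likelihood ratio test, left-out libraries and a replicate block. The code was tested on simulated data. All 15 pairs of libraries differed by more than counting noise (chi-square over its degrees of freedom, 32.5 to 205), so none was a repeat deposit.

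All clusters at the 8 loci were named. Of 26 further machinery genes, those with an unadjusted p below 0.05 and the 3 with the highest mean were to be named, and of other miRNA genes the 3 most alike to the leading gene of each family. Members and lists were chosen with earlier results of these data known.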

Additional observations from a re-analysis of the deposited data

Results flagged for a closer look

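The total of wild type replicate 1 was 18134284 counts, against a median of 10564027 counts in the 3 other wild type libraries. The distance to the next highest total took up 0.849 of the spread of the wild type totals. It was the single such value among 25 quantities of 4 wild type libraries each, where chance gives about 1.25. No member cluster, family sum or ratio had a wild type library that far from the others.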

How the results depend on the processing

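The 11 member clusters gave 0 calls under every alternative that kept both memory libraries, and so did the machinery list. With spans extended by 1 kb, 14 of the 16 clusters were tested and gave 0 calls. Among alternative values of the log2 fold changes of the 11 member clusters, 150 kept the sign and 17 did not. With library size alone, which moved the median of all clusters to -0.23 from -0.03, the reversed values were -0.0012 (Cluster_3), -0.04 (Cluster_2601), -0.07 (Cluster_2605), -0.28 (MIR403), -0.16 (MIR168A) and -0.1 (MIR162B), and with at least 10 counts in every library -0.02 (MIR403). Leaving out 1 library gave -0.06 to 0.56 for Cluster_3, -0.14 to 0.61 for Cluster_2601, -0.09 to 1.05 for Cluster_2604, -0.28 to 0.62 for Cluster_2605, -0.33 to 0.29 for MIR403, -0.51 to 0.63 for MIR168A, -0.23 to 0.53 for MIR162B and -0.82 to 0.13 for MIR162A. For MIR162A the reversal came without memory replicate 1, and for the others without memory replicate 2 (for MIR403 also without wild type replicate 1 or 2). AGO2 kept -1.04 to -0.65 and MIR168B 0.41 to 0.67.

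Differences in CPM with plain totals and with ribosomal RNA loci left out were -461.5 and -431.5 for miR168, -47.3 and -42.5 for miR162, and -318.6 and -368.3 for miR403. Leaving out 1 library gave -1234 to 2307 CPM for miR168, -74.8 to 147.6 for miR162, -345.7 to 362.9 for miR403, -0.421 to 9.41 for AGO1, -0.359 to 5.93 for DCL1 and -39.7 to -24.4 for AGO2. With 1 memory library left these are values with no exact test.

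Over all clusters the count of calls was 1, and became 7 with library size alone, 2 with at least 10 counts in every library, 245 with DESeq2 and 137 with the likelihood ratio test, and 0 to 9 when 1 library was left out (the lone memory library is then assumed to vary like wild type). Other miRNA genes gave 4 calls with DESeq2 and 2 with the likelihood ratio test. What causes the shifts was not tested. A replicate block on the 4 libraries numbered 1 and 2 gave 0 calls over all clusters, as did the same 4 libraries without it. Deviations of same-numbered libraries from their group means correlated at -0.021 and -0.088. With 2 memory plants each memory deviation is the negative of the other, so these were not separate checks. Whether the numbers pair plants cannot be settled from them. Depth was lowest at Cluster_2602 (2 to 9 counts a library) and Cluster_4 (6 to 11), which the filter on low counts left out.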

Other observations

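A cluster outside the rule lay 872 bases from *MIR403* and was picked after its values were seen. Cluster_7218 (chromosome 2, 19416059 to 19416597) held 9 and 4 counts in memory, against 30, 25, 29 and 27 counts in wild type, with 0.679 ± 0.0347 CPM in memory (SD, n = 2) and 2.18 ± 0.33 CPM in wild type (SD, n = 4). The fit gave a log2 fold change of -1.66 ± 0.36 (SE) with an unadjusted p of 0.00327 and an adjusted p of 0.352 (edgeR quasi-likelihood), so it did not pass. On the other side of *MIR403*, Cluster_7216 had 3.51 ± 0.113 CPM in memory and 3.31 ± 0.878 CPM in wild type. Cluster_16226, 627 bases from *MIR168B*, had 78.0 ± 20.1 CPM in memory and 73.6 ± 7.89 CPM in wild type, with a log2 fold change of 0.08 ± 0.19 (SE).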
